A study of Mus musculus with 16 samples.

Results

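At 2586 regions of the mouse genome, RUNX1 and c-Jun had peaks in proliferating myoblasts and MyoG had one after 1 day of differentiation, while no MyoD peak lay in the same region. The regions came from chromatin immunoprecipitation followed by sequencing (ChIP-seq), in which DNA held by a factor is pulled down with an antibody and sequenced. They were chosen by the deposited peaks of build mm9 alone: peaks of 4 lists that overlapped by 1 bp or more on chromosomes 1 to 19 were merged, and a merged region was kept if it held RUNX1, c-Jun and MyoG peaks and no MyoD peak. The 2586 regions were 2.65% of 97753 merged regions. On single chromosomes the share ran from 2.2% on chromosome 13 to 3.34% on chromosome 19.

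RUNX1 is a DNA-binding factor that acts with the partner CBFB and recognises a short runt motif. c-Jun forms AP-1 dimers with Fos proteins or itself, and AP-1 sites are common in enhancers of cells that respond to growth factors. MyoD and MyoG are basic helix-loop-helix factors that pair with E proteins and recognise E-box sequences. MyoD is made in myoblasts and specifies the muscle lineage, and MyoG follows when myoblasts leave the cell cycle and differentiate, often at sites that MyoD held before. The regions described here held a MyoG peak and no MyoD peak.

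All cells came from gastrocnemius muscle of wild-type C57BL/6 mice aged 2 to 3 weeks, and were grown on Matrigel as primary myoblasts. RUNX1, MyoD and c-Jun were precipitated after 3 days in culture in proliferation medium. MyoG was precipitated on day 4, after 24 hours in medium with horse serum and insulin, when the labels call the cells myotubes. Each of the 4 ChIP groups and each of the 4 matching controls (rabbit non-immune serum for RUNX1, mouse IgG for MyoD and for MyoG, rabbit IgG for c-Jun) had 2 samples, 16 in all, described as biological replicates in the labels. Factor and cell stage differ together for MyoG, and the 2 cannot be told apart.

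Each factor had 1 deposited list of peaks, with 61491 peaks for MyoG, 45201 for MyoD, 42226 for RUNX1 and 41480 for c-Jun on chromosomes 1 to 19. The list read as MyoG carries only an abbreviation and was assigned by elimination. Replicates were not separated and read depth is unknown, so there is no spread between cultures and no test of a difference between classes of regions. Ranges over the 19 chromosomes and exact (Clopper-Pearson) 95% intervals, which cover counting error over regions only, are given in place of replicate errors. Since the presence of peaks chose the regions, every comparison between classes is a description. A missing peak does not show that a factor was absent. The control samples had no values in the lists. Each peak carries a score from the authors' software, with a lower limit near 50 and a pile at exactly 3100, and scores are compared only within 1 list. A region's score for a factor is that of its best peak.

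**Figure D1:**
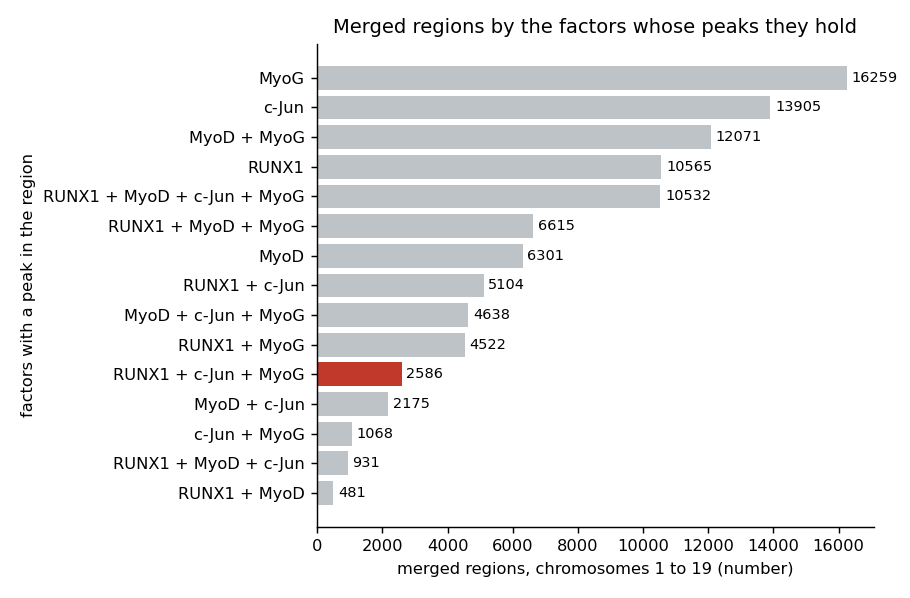
Bars give the number of merged regions on chromosomes 1 to 19 (x axis) for each combination of factors with a peak in the region (y axis). The red bar marks the 2586 regions with RUNX1, c-Jun and MyoG and no MyoD, beside 10532 with all 4 factors and 5104 with RUNX1 and c-Jun alone.

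Among regions with RUNX1, c-Jun and MyoG, MyoD was usually present as well. Of 13118 such regions, 10532 held all 4 factors and 2586 lacked MyoD, a share of 19.7% (95% interval 19.04 to 20.4) that ran from 17.1% on chromosome 13 to 23.3% on chromosome 3. Seen from the MyoD-free side, a c-Jun peak was present in 36.4% (35.3 to 37.5) of the 7108 regions with RUNX1 and MyoG, and a RUNX1 peak in 70.8% (69.3 to 72.2) of the 3654 regions with c-Jun and MyoG. MyoG without MyoD thus met c-Jun mostly where RUNX1 was present too. This was not particular to regions without MyoD. Where MyoD, c-Jun and MyoG were all present, 10532 regions held RUNX1 and 4638 did not. Of the whole lists, 6.3% (RUNX1), 6.36% (c-Jun) and 4.55% (MyoG) of the peaks fell in the 2586 regions.

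The regions had a median width of 1484 bp, with the middle 50% between 1224 and 1891 bp. The median was 1547 bp in regions with all 4 factors. It was lower with RUNX1 and c-Jun alone (1282 bp), RUNX1 and MyoG alone (1022 bp) and c-Jun and MyoG alone (1136 bp). Of the regions with RUNX1, c-Jun and MyoG and no MyoD, 2313 (89.4%) held exactly 1 peak of each list. More than 1 MyoG peak was found in 200 (7.73%). RUNX1 and c-Jun peaks overlapped directly in 2580, RUNX1 and MyoG peaks in 2536, and c-Jun and MyoG peaks in 2455. A base covered by all 3 peaks existed in 2393 (92.5%). The remaining regions were chains in which a peak bridged the others.

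RUNX1 was the strong partner in these regions and MyoG the weak one. The median RUNX1 score was 399.7 (middle 50% from 167.7 to 900.9), above the 188.3 of regions with RUNX1 and c-Jun alone and the 153.1 of regions with RUNX1 and MyoG alone. The median was higher on 19 of 19 chromosomes against either class. It was also above the 342.9 of regions with all 4 factors, on 16 of 19 chromosomes. RUNX1 peaks were wide as well, with a median of 1194 bp against 927 bp with RUNX1 and c-Jun alone.

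For MyoG the regions stood below some classes and above another. The median MyoG score was 112.5 (middle 50% from 73.5 to 205.1) and the median in regions with all 4 factors was 702.8. The median was lower without MyoD on 19 of 19 chromosomes. It was also below the 131.2 of regions with RUNX1 and MyoG alone, on 18 of 19 chromosomes, and above the 91.7 of regions with c-Jun and MyoG alone, on 19 of 19. No region reached the score ceiling for MyoG, and the highest MyoG score was 2054.

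c-Jun lay between the other partners. Its median score was 190.2 (middle 50% from 93.0 to 455.9), against 201.9 in regions with RUNX1 and c-Jun alone, where it was higher on 13 of 19 chromosomes and lower on 6. Regions with all 4 factors had a median of 323.7, higher on 19 of 19 chromosomes, and regions with c-Jun and MyoG alone had 119.9, lower on 19 of 19.

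**Figure D2:**
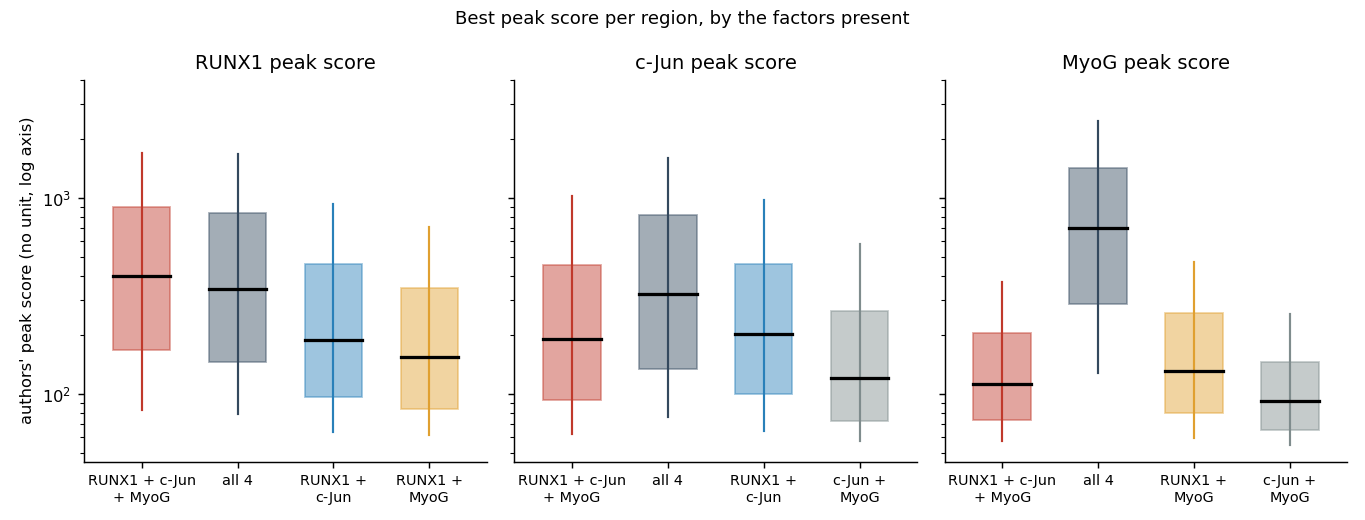
Authors' peak score on a log axis (y) by class of region (x), in 1 panel per factor. Boxes span the middle 50%, lines run from the 10th to the 90th percentile and black bars are medians. The red MyoG box, with a median of 112.5, lies below the dark box of all 4 factors at 702.8, while the red RUNX1 box has a median of 399.7 against 342.9.

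The same picture appears when each score is placed within its own list. A score above the median of the list was found for RUNX1 in 73.4% of the regions, for c-Jun in 53.4% and for MyoG in 27.1%. In regions with all 4 factors the shares were 69.1%, 67.9% and 83.6%. RUNX1 was the partner that stood highest in its own list in 1514 regions, c-Jun in 792 and MyoG in 280. All 3 scores exceeded the medians of their lists in 293 regions (11.3%), against 4430 (42.1%) of those with all 4 factors.

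The weak MyoG scores remained when the RUNX1 score was held alike. The 13118 regions with RUNX1, c-Jun and MyoG were split into 5 classes of equal size by RUNX1 score. In the lowest class the median MyoG score was 100.2 without MyoD and 452.2 with it, and in the highest class 128.4 and 1202. c-Jun scores were also lower without MyoD, with medians of 161.2 against 242.7 in the lowest class and 263.1 against 504.8 in the highest. The share of regions without MyoD moved little over these RUNX1 classes, between 17.5% and 21.3%.

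It moved far more with the MyoG score. In the lowest of 10 classes of the MyoG score, from 50.07 to 82.7, 839 of 1311 regions had no MyoD peak (64.0%, 61.3 to 66.6). In class 3 the share was 36.3% (33.7 to 39.0), in class 5 it was 13.3% (11.5 to 15.2) and in class 7 it was 2.97% (2.12 to 4.04). In class 9, with MyoG scores from 1421 to 2223, 2 of 1312 regions lacked MyoD. In class 10 there were 0 of 1312, for which the exact 95% interval reaches 0.281% and a limit of 3 counts gives 0.229%. At the highest MyoG scores, nearly every region with RUNX1 and c-Jun also held a MyoD peak.

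**Figure D3:**
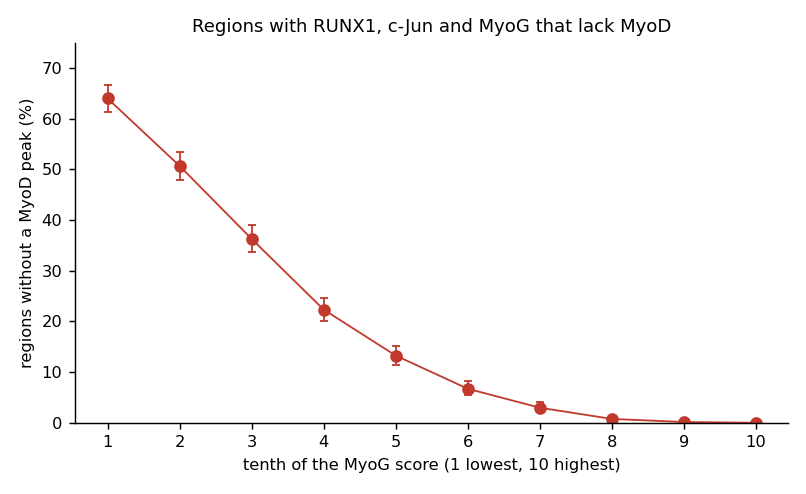
Share of regions with RUNX1, c-Jun and MyoG that held no MyoD peak (y axis, percent) by class of the MyoG score (x axis, 10 classes of equal size). Points are shares with exact 95% intervals, and they fall from 64.0% in class 1 to 0 of 1312 in class 10.

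RUNX1 and c-Jun regions without MyoD numbered 7690, of which the 2586 held MyoG (33.6%, 32.6 to 34.7, from 30.2% on chromosome 18 to 40.2% on chromosome 4). MyoG was present at a similar 29.97% (29.2 to 30.7) of the 15087 RUNX1 regions without MyoD and c-Jun. It was present at 7.13% (6.73 to 7.56) of the 14973 c-Jun regions without MyoD and RUNX1. With RUNX1, MyoD and c-Jun together, 91.9% (91.4 to 92.4) of 11463 regions held MyoG. In the 7690 regions the share followed the RUNX1 score. It was 18.5% (15.8 to 21.4) in the lowest of 10 score classes, with RUNX1 scores up to 67.6, 28.6% (25.4 to 32.0) in class 5 and 57.7% (54.2 to 61.3) in the highest, with scores from 1231 upward. The highest of 4 classes exceeded the lowest on 19 of 19 chromosomes, by 15.6 to 43.1 percentage points.

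Over all 7690 regions, the share differed little between classes of the c-Jun score. The share was 36.7% (33.3 to 40.2) in the lowest of 10 c-Jun classes and 35.1% (31.7 to 38.6) in the highest, and the classes between held 30.7% to 36.0%. The highest of 4 c-Jun classes exceeded the lowest on 8 chromosomes and lay below it on 11. Crossing 4 RUNX1 classes with 4 c-Jun classes gave shares of 17.5% to 27.3% in the lowest RUNX1 class and 48.2% to 54.8% in the highest. Within the lowest RUNX1 class the share was 27.3% (23.6 to 31.3) at the lowest c-Jun scores and 17.5% (14.0 to 21.6) at the highest. The share was also lower at the highest c-Jun scores in RUNX1 class 2, with 28.3% (24.4 to 32.5) against 22.1% (18.4 to 26.2), and in class 3, with 41.2% (36.8 to 45.8) against 34.4% (30.3 to 38.7). Only in the highest RUNX1 class was it higher, with 48.2% (43.3 to 53.1) against 54.8% (50.5 to 59.1). Within classes of the RUNX1 score, then, the MyoG share was lower at the highest than at the lowest c-Jun scores in 3 of 4. The 2 intervals overlapped in every RUNX1 class but the lowest. This crossing counted a MyoG peak anywhere in the region.

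Peak width moved with the RUNX1 score, from a median of 712 bp in the lowest class to 1437 bp in the highest, and a wide peak offers more bases to overlap. Counting only MyoG centres within 150 bp of the RUNX1 centre, whatever the width, the share was 11.2% (9.04 to 13.6) in the lowest class and 27.2% (24.1 to 30.5) in the highest. The gap shrank from 39.3 to 16.0 percentage points and kept its direction. For c-Jun, whose peaks widened from 874 to 1396 bp, the same count gave 20.03% (17.25 to 23.03) and 16.1% (13.6 to 18.9).

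**Figure D4:**
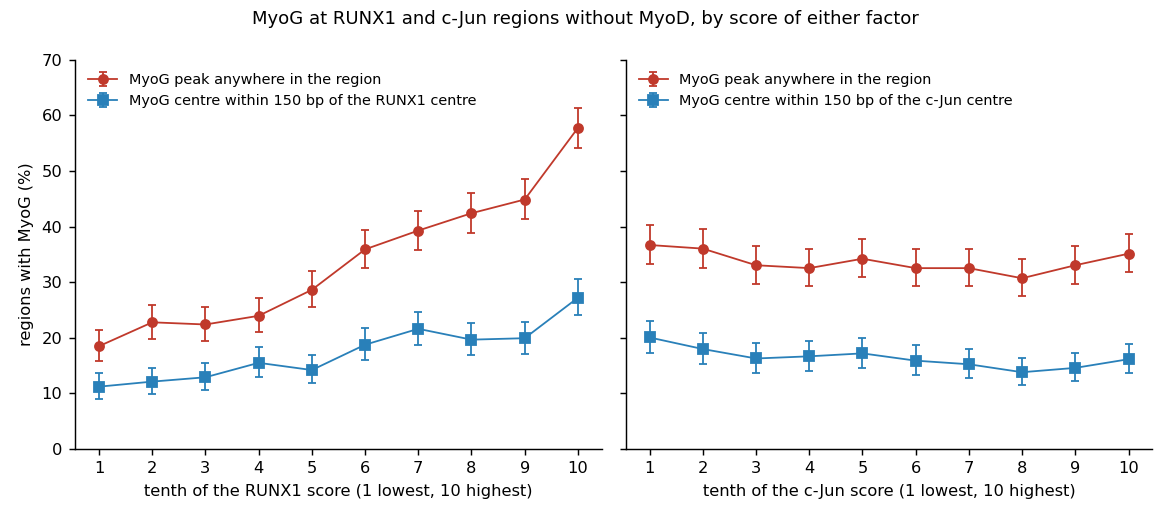
Share of the 7690 RUNX1 and c-Jun regions without MyoD that held MyoG (y axis, percent) by class of the RUNX1 score (left) and of the c-Jun score (right), 769 regions per class, with exact 95% intervals. Red points count a MyoG peak anywhere in the region and rise from 18.5% to 57.7% with RUNX1 but stay between 30.7% and 36.7% with c-Jun; blue points count MyoG centres within 150 bp.

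Other region classes showed a like relation with RUNX1 when a MyoG peak anywhere in the region was counted. Centres within 150 bp were not counted in these classes, so the part of peak width there is unknown. Where neither MyoD nor c-Jun was present, MyoG was found at 18.1% (16.2 to 20.1) of the 1508 RUNX1 regions of lowest score and at 42.4% (39.9 to 44.95) of the 1509 of highest score. Where MyoD and c-Jun were both present, the shares were 82.9% (80.6 to 85.0) and 99.2% (98.5 to 99.6). At c-Jun regions with neither MyoD nor RUNX1, MyoG was rare in every class of the c-Jun score, between 5.94% and 8.42%. By this count, the relation with the RUNX1 score was thus not limited to the regions with c-Jun.

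Among the 2586 regions, scores of the partners were nearly unrelated. Spearman's rho across regions was 0.16 for RUNX1 and c-Jun, 0.12 for RUNX1 and MyoG and -0.04 for c-Jun and MyoG. In the 10532 regions with all 4 factors the values were 0.18, 0.28 and 0.05. These are descriptions across regions that share their libraries, and regions are not replicates. Where MyoG was present, its median score was 101.9 in the lowest RUNX1 class and 130.6 in the highest. These medians cover called peaks alone, and the scores of called peaks have a lower limit. A median score and a share of regions are also unlike measures. Whether the RUNX1 score moved more with the MyoG share or with the MyoG score was therefore not tested.

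The centres of the peaks lay close together. The median distance was 165 bp between RUNX1 and c-Jun, 149.2 bp between RUNX1 and MyoG and 162.5 bp between c-Jun and MyoG, with the middle 50% of RUNX1 to MyoG distances between 56 and 344.9 bp. The files give no summits, so a centre is the midpoint of the peak and is imprecise for wide peaks. All 3 centres fell within a span of 150 bp in 714 regions (27.6%, 25.9 to 29.4), against 35.2% (34.3 to 36.1) of the regions with all 4 factors. These 714 compact regions had lower median scores than the 595 with a span over 600 bp, at 322.3 against 481.7 for RUNX1, 177.9 against 211.8 for c-Jun and 102.5 against 121.3 for MyoG. Their median widths were 1171 and 2207 bp.

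MyoG lay nearer to RUNX1 than to c-Jun somewhat more often than not. In the 2309 regions with 1 peak of each list and unequal distances, the MyoG centre was nearer to the RUNX1 centre in 1326 (57.4%, 55.4 to 59.5). Regions with all 4 factors leaned the same way, in 4472 of 8231 (54.3%, 53.3 to 55.4). In the 2309 regions without MyoD, the share was over 50% on 18 of 19 chromosomes, from 46.6% on chromosome 19 to 68.2% on chromosome 6. The share was 57.2% (54.6 to 59.7) where the partner standing higher in its list was RUNX1 and 57.9% (54.4 to 61.4) where it was c-Jun.

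The share of regions with MyoG nearer to RUNX1 was largest where RUNX1 and c-Jun were far apart. The widest 25% of peaks in the 2586 regions began at 1561 bp for RUNX1 and 1303 bp for c-Jun. The part of peak width in this share was not tested. With their centres 600 bp or more apart, MyoG was nearer to RUNX1 in 141 of 203 regions (69.5%, 62.6 to 75.7), at a median of 367 bp from RUNX1 and 742.5 bp from c-Jun. With centres less than 75 bp apart the share was 54.5% (50.8 to 58.3), between 75 and 150 bp it was 59.0%, between 150 and 300 bp 52.2% (47.9 to 56.5) and between 300 and 600 bp 61.4%, so the share did not rise steadily. The RUNX1 peak was the middle one of the 3 in 954 of 2313 regions (41.2%), MyoG in 719 (31.1%) and c-Jun in 640 (27.7%).

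In regions with all 4 factors, MyoD was the partner most often nearest to MyoG. There the MyoG centre lay a median of 61.5 bp from the MyoD centre, 111.5 bp from RUNX1 and 128.5 bp from c-Jun, and with 1 peak each MyoD was the nearest partner in 49.8% (48.7 to 50.8), RUNX1 in 28.3% and c-Jun in 22.0%. The 2586 regions had longer median distances than these, on 16 of 19 chromosomes for RUNX1 to MyoG, on 17 for c-Jun to MyoG and on 15 for RUNX1 to c-Jun (165 against 140.5 bp). Other classes without MyoD did not share the longer spacing. The RUNX1 to MyoG distance was 99.0 bp in regions with RUNX1 and MyoG alone, shorter than in the 2586 regions on 18 of 19 chromosomes. The RUNX1 to c-Jun distance was 113.0 bp in regions with RUNX1 and c-Jun alone, shorter on 19 of 19. The c-Jun to MyoG distance was 126.5 bp in regions with c-Jun and MyoG alone, shorter on 16 of 19. With exactly 1 peak of each list, these medians in the 2586 regions were 133.0, 148.5 and 149.0 bp in the same order. In the 2586 regions, but not in these classes, a peak of a further factor can bridge the others. RUNX1 peaks were wider in the 2586 regions, with a median of 1194 bp. It was 960 bp with RUNX1 and MyoG alone and 927 bp with RUNX1 and c-Jun alone. The part of bridging and width was not tested.

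Without a MyoD peak inside, the regions were still often near one. The nearest MyoD peak lay a median of 6940 bp away (middle 50% from 2304 to 17570 bp). A MyoD peak lay within 1 kb of 341 regions (13.2%) and within 10 kb of 1532 (59.2%, from 50.5% to 66.7% over chromosomes). The share within 10 kb was 53.3% for regions with RUNX1 and c-Jun alone, lower on 19 of 19 chromosomes, and 57.5% for regions with RUNX1 and MyoG alone, lower on 10 of 19 and higher on 9. It was 56.3% both for regions with c-Jun and MyoG alone, which were lower on 13 of 19 chromosomes, and for MyoG alone. The classes without MyoG were lower, with 48.8% for RUNX1 alone and 47.9% for c-Jun alone.

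The MyoG score varied little with the distance to MyoD. The median MyoG score was 115.9 in the 341 regions within 1 kb of a MyoD peak and 106.3 in the 160 regions more than 50 kb from one. The c-Jun median was 211.3 within 1 kb, 198.6 from 1 to 10 kb, 182.7 from 10 to 50 kb and 153.8 beyond. The RUNX1 median had no steady order, at 410.6, 387.6, 385.1 and 536.9 in the same bins, and was high in the 160 most remote regions alone.

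**Figure D5:**
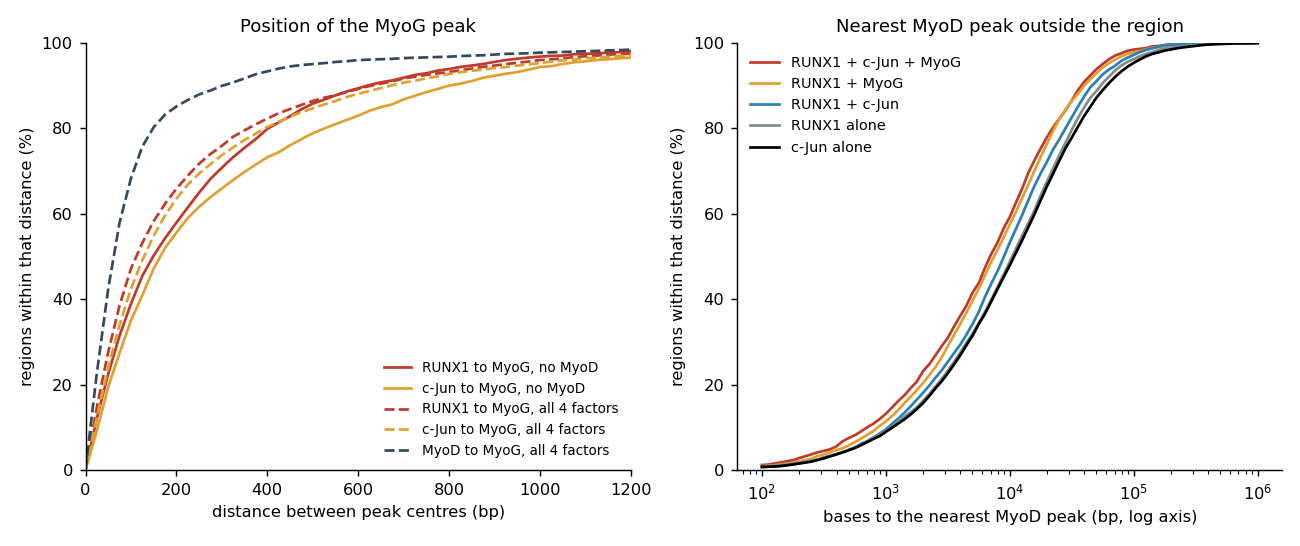
Left, share of regions (y axis, percent) whose MyoG centre lay within a given distance in bp (x axis) of another centre, with solid lines for regions without MyoD and dashed lines for regions with all 4 factors; the dark dashed line of MyoD to MyoG, with a median of 61.5 bp, rises first. Right, share of regions with a MyoD peak within a given number of bases outside the region (x axis, log scale), with 59.2% at 10 kb for RUNX1, c-Jun and MyoG regions and 47.9% for c-Jun alone.

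At the border of the rule, small shifts decide membership. The region at chr4:16089901-16091624 had a MyoD peak 9 bp outside it, with a MyoD score of 94.2, and RUNX1, c-Jun and MyoG scores of 1154, 109.6 and 111.5. The next were at chr9:72487421-72488733 and at chr11:5151810-5153192, each with a MyoD peak 13 bp away, of score 704.8 and 475.6. Just outside the rule, the region at chr2:156136072-156138754 held all 4 factors by a MyoD overlap of 2 bp, with a MyoD score of 61.4. The next such overlaps were 13 bp at chr4:122693361-122695225 and 14 bp at chr15:88999531-89001656. Scores near the lower limit of the lists also decide membership. A score under 60 was found for MyoG in 333 regions (12.9%), for c-Jun in 219 (8.47%) and for RUNX1 in 87 (3.36%). The 10th percentile of the regions stood at percentile 6.63 of the whole MyoG list, 11.4 of the c-Jun list and 23.2 of the RUNX1 list. Low scores were thus more common here than in the list for MyoG and rarer for RUNX1. In regions with all 4 factors, the MyoD score was under 60 in 130 of 10532 (1.23%). The lowest MyoG scores, from 50.07 to 50.16, were at chr15:103326115-103327402 and chr15:100057408-100058779 and at chr4:8769575-8770852. Their RUNX1 scores were 876.9, 439.5 and 175.7 and their c-Jun scores 1623, 212.6 and 960.6.

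The regions in which all 3 partners ranked well were named by the worst of their 3 ranks. The first lay at chr4:114658541-114660326, with scores of 951.5 for RUNX1, 1246 for c-Jun and 854.6 for MyoG, and its nearest MyoD peak was 25843 bp away. The second, at chr2:44781986-44783652, had scores of 2126, 1208 and 820.1 in the same order, with RUNX1 and MyoG centres 117.5 bp and c-Jun and MyoG centres 42.5 bp apart. Its nearest MyoD peak was 24577 bp away. In both of these regions every partner was far above the median of its list.

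The region at chr2:19578801-19580891 had scores of 1999 for RUNX1, 711.9 for c-Jun and 761.8 for MyoG. That at chr8:86724497-86728442 held 6 peaks over 3946 bp, with 2892 for RUNX1, 2173 for c-Jun and 694.6 for MyoG, and its c-Jun and MyoG centres were 1498 bp apart. At chr11:94788765-94790794 the MyoG centre was 50.5 bp from RUNX1 and 616.5 bp from c-Jun, with scores of 507.2, 1442 and 683.3. Wide regions such as that on chromosome 8 do not show that the factors met at the same bases.

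The other 5 of these 10 lay at chr17:26644664-26646396, at chr5:24535775-24537245 and chr5:113542265-113544301, at chr8:122773121-122774324, and at chr1:7078139-7079652. Their MyoG scores ran from 623.0 to 696.4. That on chromosome 17 had a MyoD peak 97 bp away, of score 97.8, and that on chromosome 8 had one of score 1694 at 215 bp, so that 2 of the 10 were within 1 kb of MyoD. The most remote of the 10 was that on chromosome 1, with the nearest MyoD peak at 116303 bp. It had scores of 1614 for RUNX1, 341.9 for c-Jun and 659.4 for MyoG, and its RUNX1 and MyoG centres were 55.5 bp apart.

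The highest MyoG scores stood beside modest scores of another partner. The region at chr11:102304734-102306010 had a MyoG score of 2054, with 164.9 for RUNX1 and 143.3 for c-Jun. Its MyoG centre was 42 bp from RUNX1 and 453 bp from c-Jun, and a MyoD peak of score 529 lay 546 bp away. The region at chr10:93976655-93978471 had 1668 for MyoG, 266.9 for RUNX1 and 154.6 for c-Jun. The third, at chr2:127950996-127954216, had 1364 for MyoG and 2009 for RUNX1 with 100.7 for c-Jun, and here MyoG was 43.5 bp from c-Jun and 901 bp from RUNX1.

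Along the chromosomes, most of the regions lay alone among the 2586 in their window of 100 kb. The 2586 regions fell into 2256 windows, of which 1963 held 1 region, 259 held 2, 31 held 3 and 3 held 4. The counts for an even spread were not computed. The windows with 4 were at chr4:139100001-139200000, with 16 merged regions in all, at chr5:141000001-141100000, with 12, and at chr16:92600001-92700000, with 19. That on chromosome 5 held 0 regions with all 4 factors and the other two held 1 each. Windows with 5 or more sites shared by MyoD, c-Jun and RUNX1 held 116 of the 2586 (4.49%, 3.72 to 5.36), beside 3.98% (3.86 to 4.11) of all merged regions. The nearest merged region lay a median of 2647 bp away and held MyoD in 47.0% of cases, where 44.7% of all merged regions held MyoD.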

How the data were processed

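Per the labels, 16 ChIP-seq samples formed 8 groups of 2. The submitters' processing notes list Bowtie, CASAVA (1.7.0, 1.8.2) and genome build mm9. The authors deposited 1 list per factor with a score per peak. Peak names begin with MACS. Not given in the sources used here are the version and settings of the caller, the control used and how replicates were pooled. No values came from the control samples.

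From the lists, peaks on chromosomes 1 to 19 were merged at an overlap of 1 bp or more, and positions are printed 1-based. Starts were read as 0-based, as in BED files, which no source states. If they were 1-based, printed starts are 1 bp too high and the shortest overlaps and gaps shift by 1 bp. The best-scoring peak of a factor gave the region's score and centre. Score classes hold equal numbers of regions. Regions were named by fixed rules: the 10 best by the worst rank over the 3 lists, and 3 each by highest and lowest MyoG score, nearest MyoD peak, shortest MyoD overlap and most regions per 100 kb window. No tests were made. The members, classes and rules were chosen with earlier results of these data known. The code was tested on simulated regions. Genes, motifs and sequences were not analysed here, since no genome or annotation of build mm9 was used. Figures were drawn with matplotlib 3.10.9 and intervals computed with scipy 1.17.1 (pandas 2.3.3, numpy 2.4.6, Python 3.11.15).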

Additional observations from a re-analysis of the deposited data

Results flagged for a closer look

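Chromosome X was not used in the comparisons above. It held 24 regions with RUNX1, c-Jun and MyoG peaks and no MyoD peak, which were singled out because the merging rule covered chromosomes 1 to 19 alone. They were 1.34% (exact 95% interval 0.859 to 1.98) of 1795 merged regions on X, and 25.5% (17.1 to 35.6) of its 94 RUNX1 and c-Jun regions without MyoD. Their median scores were 431.4 for RUNX1, 148.2 for c-Jun and 141.9 for MyoG. The share on X was not tested against that of the autosomes.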

How the results depend on the processing

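No paired analysis was possible because each factor has 1 list in which replicates are not separated. Single replicates could not be left out for that reason. Motifs, transcription starts and genes, with their alternatives, were not run without a genome or annotation of build mm9. Of 41 alternatives, 21 stayed within 1.5 times the count or inside the 95% interval of the value and 20 did not. The 2586 regions became 1356 with peak centres within 150 bp, 1582 with windows of 200 bp around centres, 294 in the stronger 50% of the RUNX1, c-Jun and MyoG lists with the whole MyoD list, and 849 in the stronger 50% of all 4 lists. The share of RUNX1 and c-Jun regions without MyoD that held MyoG fell from 33.6% to 24.3%, 25.8%, 11.55% and 23.0% in the same order, and was 31.1% when a base had to be covered by all 3 peaks. In the stronger 50% of the 3 lists, median scores were by construction higher, at 869.8 for RUNX1, 407.3 for c-Jun and 293.4 for MyoG. Median centre distances there were 206.8 bp for RUNX1 to c-Jun, 183.0 bp for RUNX1 to MyoG and 222.5 bp for c-Jun to MyoG. With exactly 1 peak of each list they were 148.5, 133.0 and 149.0 bp. Without regions within 1 kb of MyoD, the share with MyoD within 10 kb was by construction lower, 53.05% against 59.2%. The following 3 checks of the MyoG share by score were chosen after seeing the data. The RUNX1 difference of 39.3 points fell to 16.0 with centres within 150 bp, and was 39.1 and 37.8 without regions near MyoD and without regions at the score ceiling. The c-Jun difference of -1.56 points ranged from -3.91 to -3.11. The causes were not tested. Read depth is unknown.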
